A study of Mus musculus with 18 samples.

Results

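The inflammatory cytokine and NF-kB feedback genes described here are 10 genes chosen by name: Il1a, Il1b, Tnf, Il6, Il10, Il18, Il1rn, Nfkbia, Nfkbiz and Ptx3. They were read from all 19 probe sets that name 1 of these genes and no other, out of 34958 such probe sets for 18194 genes on the array. For 8 of the 10 genes the highest probe set passed the filter on low values, as did 11630 of the 18194 genes, and only these were tested. RNA was measured on 18 Affymetrix Mouse430_2 arrays in microglia, the resident macrophages of the brain, sorted by CX3CR1-GFP out of pooled mouse hippocampi at E17.5. All groups are on the C57BL/6 background. All groups carry the Cx3cr1-GFP reporter, and embryos of a dam were pooled, so that a value is a mean over a litter. The 4 LPS arrays come from embryos under maternal inflammation by LPS, a component of bacterial outer membranes, named LPS3_2008, LPS1_2010, LPS2_2010 and LPS-3_2_2013. The 4 PBS arrays are their PBS-treated controls, named PBS4_2008, PBS1_2010, PBS2_2010 and PBS-2_2013. The 4 DAP12KO arrays, numbered 1, 2, 4 and 5 with names that end in _2013, come from untreated DAP12-/- embryos, which lack the adaptor protein encoded by Tyrobp. The 6 untreated wild-type (UT) arrays are their controls, UT3_2012 and UT4_2012 and UT numbers 1, 2, 3 and 6 ending in _2013. The years in these names are called year 1 (_2008), year 2 (_2010), year 3 (_2012) and year 4 (_2013) below, and values are given in that order, and within a year by array number. The labels give no dose or time of the LPS and no description of the DAP12 allele.

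Interleukin-1 and TNF are secreted by macrophages after recognition of microbial products and bind receptors that activate NF-kB. NF-kB is held in the cytoplasm by IkB proteins such as the product of Nfkbia. Once released it induces many cytokine genes, and also Nfkbia and Nfkbiz, whose products feed back on it. Il1rn encodes the natural antagonist of the interleukin-1 receptor, Il10 an anti-inflammatory cytokine, and Ptx3 a long pentraxin that binds microbes and complement.

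Values are log2 units as deposited, with 2.49 as the threshold of the filter. The lowest deposited value, 2.19, is shared by all 18 arrays, and values under the threshold have no order. Of several probe sets of a gene the one with the highest mean is given unless another is named, and levels are compared between arrays, not between probe sets. Markers of microglia were high throughout, with a mean over 21 of 22 genes of 12.63 to 13.42 on LPS, 11.46 to 13.45 on PBS, 13.38 to 13.64 on DAP12KO and 13.33 to 13.60 on UT arrays. The PBS arrays of year 2 stood apart. Their neuron marker means over 20 of 21 genes were 10.49 and 10.59, against 7.31 and 7.89 on the other PBS arrays, and their microglia marker means of 11.46 and 11.71 were the lowest of all arrays. The arrays of year 2 were also more alike within a group than others, with a Pearson r over probe sets of 0.984 for the LPS pair and 0.980 for the PBS pair. The Gapdh 3 prime minus 5 prime value, which compares the ends of the same transcript, differed between years. On LPS arrays it read 2.73 in year 1, 2.23 and 2.96 in year 2 and 0.96 in year 4. The PBS arrays read 2.01, then 2.46 and 3.33, then 0.985. It was 2.77 on UT4_2012 and 2.235 on UT array 2 of year 4, and lower on the other UT and all DAP12KO arrays. Its part in the results was not tested. Tyrobp stayed between 13.75 and 14.23 on DAP12KO arrays, against 14.29 to 14.55 on UT arrays. The sources used here do not say where its probes lie relative to the deleted part, so this level does not check the label.

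Promoter sequence from RefSeq (GRCm38.p6) was available for 8 of the 10 genes and was searched for the 10-base κB consensus, the DNA motif of NF-kB, on both strands from 250 bases before to 50 bases after the start. Of the 10 promoters of these 8 genes, 3 held it, those of Il6, Nfkbia and Ptx3. The share over all 32851 promoters of the same length was 8.46%. The match began 44 bases before the start of Il6, 29 before that of Nfkbia and 1 before that of Ptx3, where 2 matches overlap. Il10 and Nfkbiz are named only. The stretches below run from 80 bases before to 20 bases after the start, 5′ to 3′ along the gene, with the match in capitals. They are shown because these are the members in which the motif was found.
Il6 (chr5:30013034-30013133, plus strand): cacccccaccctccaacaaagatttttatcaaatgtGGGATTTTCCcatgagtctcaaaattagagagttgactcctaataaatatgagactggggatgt
Nfkbia (chr12:55492628-55492727, minus strand): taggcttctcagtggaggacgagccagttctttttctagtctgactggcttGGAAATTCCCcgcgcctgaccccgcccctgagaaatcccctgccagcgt
Ptx3 (chr3:66219807-66219906, plus strand): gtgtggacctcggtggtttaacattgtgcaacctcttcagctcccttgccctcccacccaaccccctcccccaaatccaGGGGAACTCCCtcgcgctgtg
A match is a description of these letters and not a measured binding site.

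The first comparison asked how maternal LPS altered these genes in embryonic microglia. Ptx3 was the only member past the test, with lower values on LPS arrays. It had passed the filter only through the PBS arrays where it was high, since its mean over the 14 other arrays was 2.32, under the threshold, so its call is given as a description. The cytokines Il1a, Il1b and Tnf had positive differences of 1.18 to 1.47 log2 units that did not pass, and Il6 and Il10 were at the lowest value on every LPS and PBS array. Of the 8 tested members, 6 had a positive and 2 a negative difference, with a median of 0.66 against −0.12 over all tested genes. The 1 member past an adjusted p of 0.05 stands beside a background of 0.0946% of tested genes (11 genes, limma with Benjamini-Hochberg adjustment), and of 0.086% for lower values alone (10 genes). That split rested on the PBS arrays of year 2: without them 8 genes were higher and 1 lower, and without all 4 arrays of year 2, 5 were higher and 0 lower. At an unadjusted p under 0.05 there were 2 members, Il1a and Ptx3, on a background of 12.4% (1447 genes). Positive differences made up 42.2% of all tested genes. No member separated the LPS from the PBS arrays without overlap over all years, as 1.96% of tested genes did.

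The second comparison asked how loss of DAP12 altered the same genes. Il1b and Tnf had the largest differences of the members, 2.71 and 2.69 log2 units, with 3 of 4 DAP12KO arrays above every UT array and the remaining one among the lowest of all arrays. Neither passed the test. Of the 8 tested members, 6 had a positive and 2 a negative difference, with a median of 0.61 against 0.02 over all tested genes. The negative signs were those of Ptx3 and Il1rn, and the median includes both. Ptx3 was under the threshold on every DAP12KO and UT array, so its sign carries no information. Il1rn differed by −0.09, and by 1.04 on its probe set 1423017_a_at. With limma, 0 members had an adjusted p under 0.05, on a background of 0% (0 genes). At an unadjusted p under 0.05 there was 1 member, Tnf, on a background of 5.48% (637 genes). Positive differences made up 51.9% of all tested genes. No member separated DAP12KO from UT without overlap, as 0.8% of tested genes did.

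**Figure D1:**
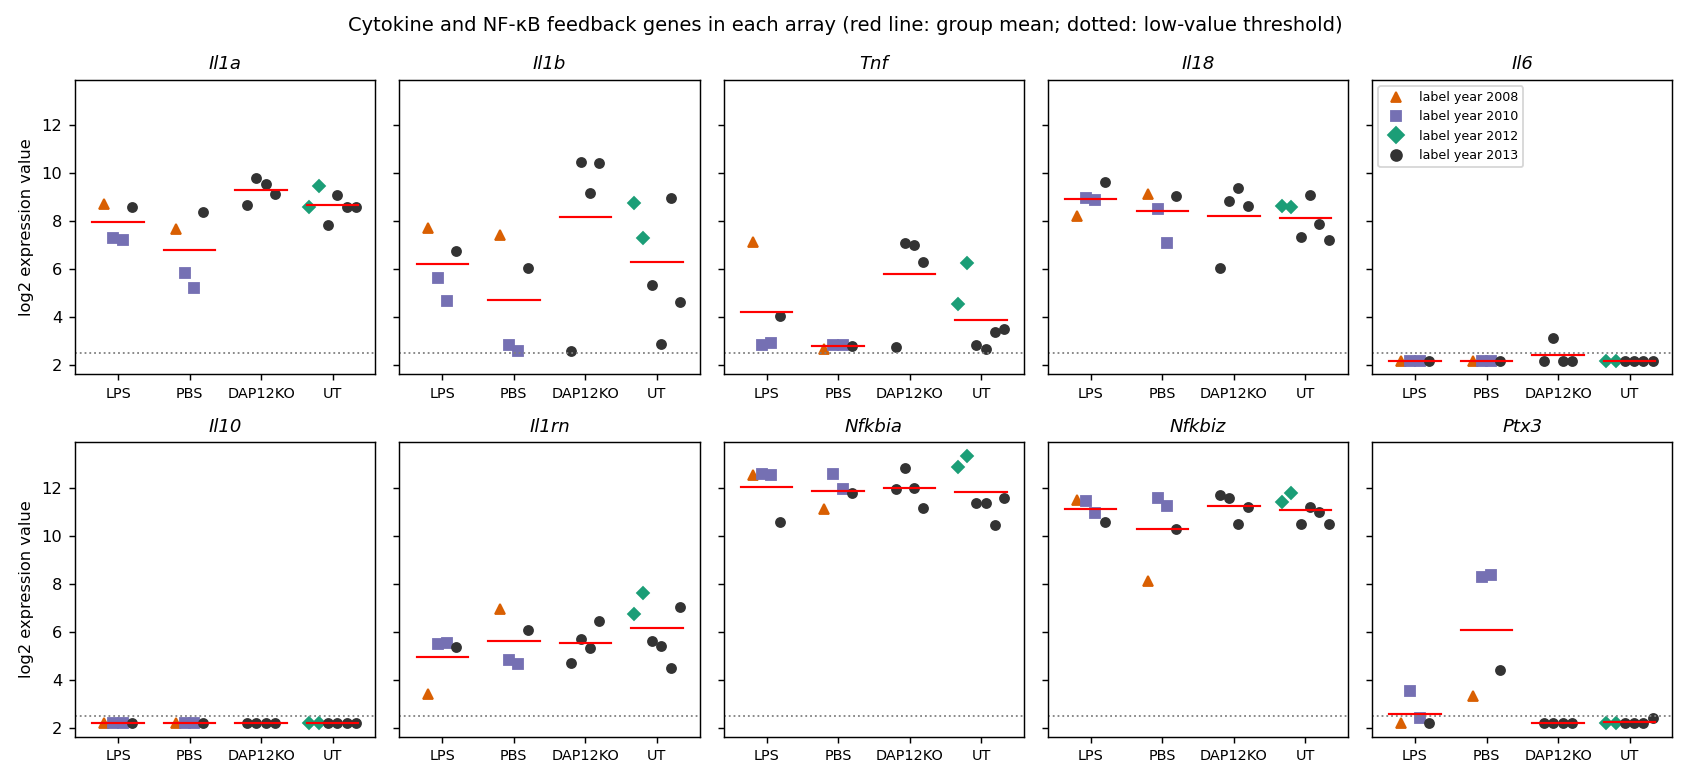
Log2 value of each member on each of the 18 arrays by group, coloured by label year, with group means as red lines and the threshold as a dotted line. Il1b and Tnf spread widely within groups, and Ptx3 was above 8 on only 2 arrays, the PBS arrays of year 2.

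Il1a encodes interleukin-1 alpha, an alarm cytokine that is active in its precursor form. It read 8.73 in year 1, 7.32 and 7.24 in year 2 and 8.58 in year 4 on LPS arrays. The PBS arrays read 7.70, then 5.84 and 5.22, then 8.39. Each LPS array was above the PBS mean of its year, but the groups overlapped across years and the arrays of year 2 were the lowest of both groups. The fitted difference was 1.18 ± 0.46 (SE, 95% interval 0.21 to 2.15, n = 4 each), with an adjusted p of 0.307 by limma. Within years 1, 2 and 4 the difference was 1.03, 1.75 and 0.19. In year 2 the microglia marker means were 12.80 and 12.63 on the LPS arrays, against 11.46 and 11.71 on the PBS arrays. Fewer microglia in a pool and less Il1a RNA per microglial cell cannot be told apart in such bulk samples, and their part in the result was not tested.

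On DAP12KO arrays Il1a read 8.68, 9.81, 9.57 and 9.15. The UT arrays read 8.58 and 9.48 in year 3 and 7.86, 9.07, 8.58 and 8.58 in year 4. All 4 DAP12KO arrays were above the UT mean of year 4, and 2 of them were above every UT array. The difference of 0.78 ± 0.46 (SE) had an adjusted p of 0.908 by limma. The value 8.58 recurs to 4 decimals on 4 arrays, 1 LPS and 3 UT, in the deposited table. Over groups, Il1a averaged 9.30 ± 0.49 on DAP12KO and 8.69 ± 0.55 on UT arrays (SD, n = 4 and 6), and 7.97 ± 0.80 on LPS and 6.79 ± 1.502 on PBS arrays (SD, n = 4 each).

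Il1b encodes interleukin-1 beta, which is cut by caspase-1 before release. It was the most variable member, with a residual SD of 2.45 log2 units around the additive fit of group and label year. This was at or above that of 99.8% of tested genes, whose median was 0.83. The LPS arrays read 7.73 in year 1, 5.65 and 4.68 in year 2 and 6.75 in year 4. The PBS arrays read 7.44, then 2.86 and 2.58, then 6.05. Each LPS array was above the PBS mean of its year, and the gap within years was 0.29, 2.45 and 0.70. It was widest in year 2, where microglia marker means were lower on the PBS than on the LPS arrays, as given for Il1a. The part of this in the Il1b gap, and in the gaps of year 2 of other genes below, was not tested. The fitted difference of 1.47 ± 1.51 (SE) had a 95% interval from −1.75 to 4.69 and an adjusted p of 0.746 by limma, so neither a change nor its absence is shown.

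On DAP12KO arrays Il1b read 2.58, 10.48, 9.18 and 10.44. On UT arrays it read 8.78 and 7.30 in year 3, and 5.35, 2.88, 8.97 and 4.66 in year 4. Of these, 3 DAP12KO arrays were the highest of all 18, and DAP12KO array 1 shared the lowest value with a PBS array of year 2. The difference of 2.71 ± 1.51 (SE, 95% interval −0.51 to 5.93) had an unadjusted p of 0.0929 and an adjusted p of 0.908 by limma. Without DAP12KO array 1 the difference was 4.57. The pools of 1 genotype and year thus spanned 7.90 log2 units among DAP12KO and 6.09 among the UT arrays of year 4.

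Tnf encodes tumour necrosis factor, which signals through a pair of receptors to NF-kB. It lay within 0.3 of its lowest value, 2.67, on 9 of the 18 arrays. On LPS arrays it read 7.13 in year 1, 2.85 and 2.92 in year 2 and 4.08 in year 4. The PBS arrays read 2.67, then 2.85 and 2.85, then 2.82. Tnf was thus more than 1 log2 unit above its lowest value on 2 of 4 LPS arrays and near it on every PBS array. The difference was 1.44 ± 0.89 (SE), with an adjusted p of 0.526 by limma, and 4.46, 0.03 and 1.25 within the years. Without the LPS array of year 1 it was 0.44. That array had the highest immediate early gene mean of both groups, 10.79, against 9.78 on the PBS array of its year. The part of handling in the Tnf value was not tested.

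On DAP12KO arrays Tnf read 2.76, 7.09, 7.03 and 6.32. The UT arrays read 4.58 and 6.24 in year 3, and 2.86, 2.69, 3.39 and 3.51 in year 4. The same 3 DAP12KO arrays that were high in Il1b were above every UT array, and DAP12KO array 1 was again among the lowest. The difference of 2.69 ± 0.89 (SE, 95% interval 0.80 to 4.58) had an unadjusted p of 0.00831 and an adjusted p of 0.788 by limma. It ranged from 2.26 to 3.70 when each array was left out in turn. The UT arrays of year 3, whose label year holds no DAP12KO array, averaged 5.41, against 3.11 on those of year 4. They also had the highest immediate early gene means of all arrays, 10.87 and 11.16.

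**Figure D2:**
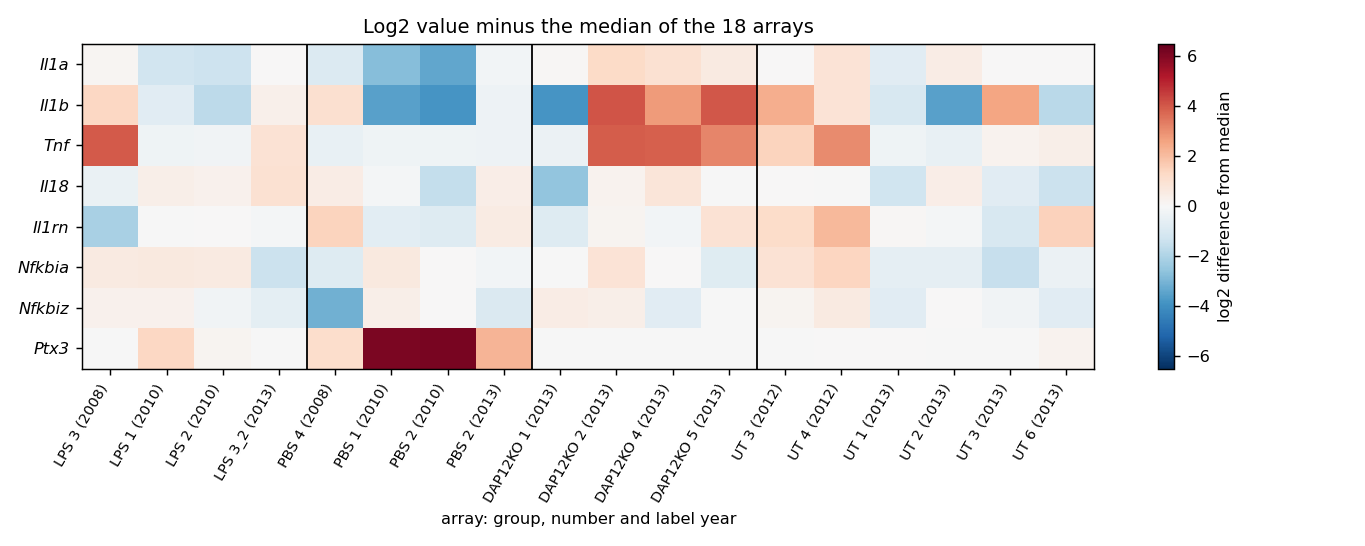
Difference of each tested member from its median over the 18 arrays, in log2 units, with arrays as columns, by group. DAP12KO array 1 is low in Il1b and Il18, and the PBS arrays of year 2 are high in Ptx3 and low in Il1a and Il1b.

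Il18 encodes interleukin-18, another substrate of caspase-1. It read 8.20 in year 1, 8.99 and 8.91 in year 2 and 9.62 in year 4 on LPS arrays. On PBS arrays it read 9.12, then 8.50 and 7.08, then 9.04. The groups overlapped, and the sign differed between years, with gaps of −0.92, 1.16 and 0.58. The difference was 0.50 ± 0.69 (SE), with an adjusted p of 0.834 by limma, and −0.17 without the 2 PBS arrays of year 2. On DAP12KO arrays Il18 read 6.07, 8.85, 9.39 and 8.62. The UT arrays read 8.63 and 8.61 in year 3, and 7.33, 9.08, 7.90 and 7.22 in year 4. The lowest Il18 value of all arrays was again that of DAP12KO array 1. The difference was 0.35 ± 0.69 (SE), with an adjusted p of 0.979 by limma.

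Il6, which encodes a cytokine of the acute-phase response, was at 2.19 on 17 of 18 arrays. The exception was DAP12KO array 2 with 3.15, the array that was also highest in Il1a and Il1b. Il10 was at 2.19 on all 18 arrays. Both genes failed the filter and were not tested, and a value at the lowest level of an array does not show that the RNA is absent.

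Il1rn has 3 probe sets, which did not behave alike. The highest, 1451798_at, read 3.43 in year 1, 5.52 and 5.55 in year 2 and 5.38 in year 4 on LPS arrays, against 6.97, then 4.85 and 4.67, then 6.07 on PBS arrays. LPS was lower in year 1 and year 4 and higher in year 2, with gaps of −3.54, −0.69 and 0.77 in that order. The difference was −0.67 ± 0.73 (SE), with an adjusted p of 0.761 by limma. On 1423017_a_at the LPS arrays read 2.27, then 3.43 and 3.19, then 3.497, and the PBS arrays 7.27, then 2.93 and 2.88, then 6.23. On this probe set LPS thus differed by −5.00 in year 1, −2.74 in year 4 and 0.41 in year 2. On 1425663_at, 15 of 18 arrays were under the threshold, among them all 4 LPS arrays, and the PBS array of year 1 read 7.22.

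On DAP12KO arrays the highest Il1rn probe set read 4.69, 5.72, 5.35 and 6.45. The UT arrays read 6.75 and 7.63 in year 3, and 5.61, 5.41, 4.50 and 7.05 in year 4. The groups overlapped, with 3 UT arrays above every DAP12KO array, and the difference was −0.09 ± 0.73 (SE, adjusted p = 1 by limma). On 1423017_a_at the difference was 1.04 ± 1.23 (SE, adjusted p = 0.959 by limma). On 1425663_at, 1 of 4 DAP12KO arrays, with 7.29, and 1 of 6 UT arrays, with 3.69, were above the threshold, and no difference is given.

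Nfkbia encodes IkB alpha, the inhibitor that NF-kB itself induces. Its highest probe set, 1420089_at, read 12.55 in year 1, 12.57 and 12.53 in year 2 and 10.56 in year 4 on LPS arrays. The PBS arrays read 11.14, then 12.59 and 11.96, then 11.78. The LPS array was higher in year 1 and lower in year 4, with gaps of 1.41, 0.28 and −1.22 over the years. The difference of 0.19 ± 0.40 (SE, 95% interval −0.66 to 1.03) had an adjusted p of 0.912 by limma. All 5 Nfkbia probe sets gave a positive difference, 0.01 to 1.75, and none passed in the fit over 22512 probe sets, where the lowest adjusted p of the 5 was 0.464. The gap in year 1 was 6.34 on 1448306_at, where the PBS array read 2.55, and 0.66 on 1420088_at.

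On DAP12KO arrays Nfkbia read 11.95, 12.82, 11.999 and 11.17. The UT arrays read 12.88 and 13.34 in year 3, and 11.39, 11.38, 10.46 and 11.56 in year 4. Among arrays of year 4, 3 of 4 DAP12KO values were above every UT value, but both UT arrays of year 3 were above all of them. The difference of 0.79 ± 0.40 (SE) had an unadjusted p of 0.0641 and an adjusted p of 0.908 by limma. Of the other 4 probe sets, 3 gave 0.87 to 1.10 and 1438157_s_at gave −0.66. The UT arrays of year 3 exceeded those of year 4 by 1.91 for Nfkbia and by 0.81 for Nfkbiz, beside the immediate early gene means given above for Tnf.

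Nfkbiz encodes IkB zeta, a nuclear IkB protein that acts with NF-kB on a subset of its target genes. Its highest probe set read 11.51 in year 1, 11.47 and 10.96 in year 2 and 10.56 in year 4 on LPS arrays, against 8.11, then 11.58 and 11.26, then 10.28 on PBS arrays. The PBS array of year 1 was the lowest of all 18, and the other years showed gaps of −0.20 and 0.28. The difference of 0.82 ± 0.49 (SE) had an adjusted p of 0.509 by limma and was −0.04 without either array of year 1. A second probe set, 1457404_at, read 8.68, then 11.48 and 11.12, then 10.01 on LPS arrays, and 7.57, then 9.62 and 9.85, then 9.10 on PBS arrays. Here LPS was higher by 1.11, 1.57 and 0.91 within the years, and the difference was 1.29 ± 0.36 (SE, unadjusted p = 0.00245, adjusted p = 0.176 by limma over all probe sets). The third probe set, 1448728_a_at, gave 0.80 ± 0.59 (SE) with gaps of 2.38, 1.05 and −1.27.

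On DAP12KO arrays Nfkbiz read 11.71, 11.58, 10.49 and 11.20, against 11.40 and 11.81 on the UT arrays of year 3 and 10.49, 11.22, 10.98 and 10.49 on those of year 4. The groups overlapped throughout. The difference was 0.45 ± 0.49 (SE), with an adjusted p of 0.956 by limma, and the other probe sets gave 0.76 and 0.45.

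**Figure D3:**
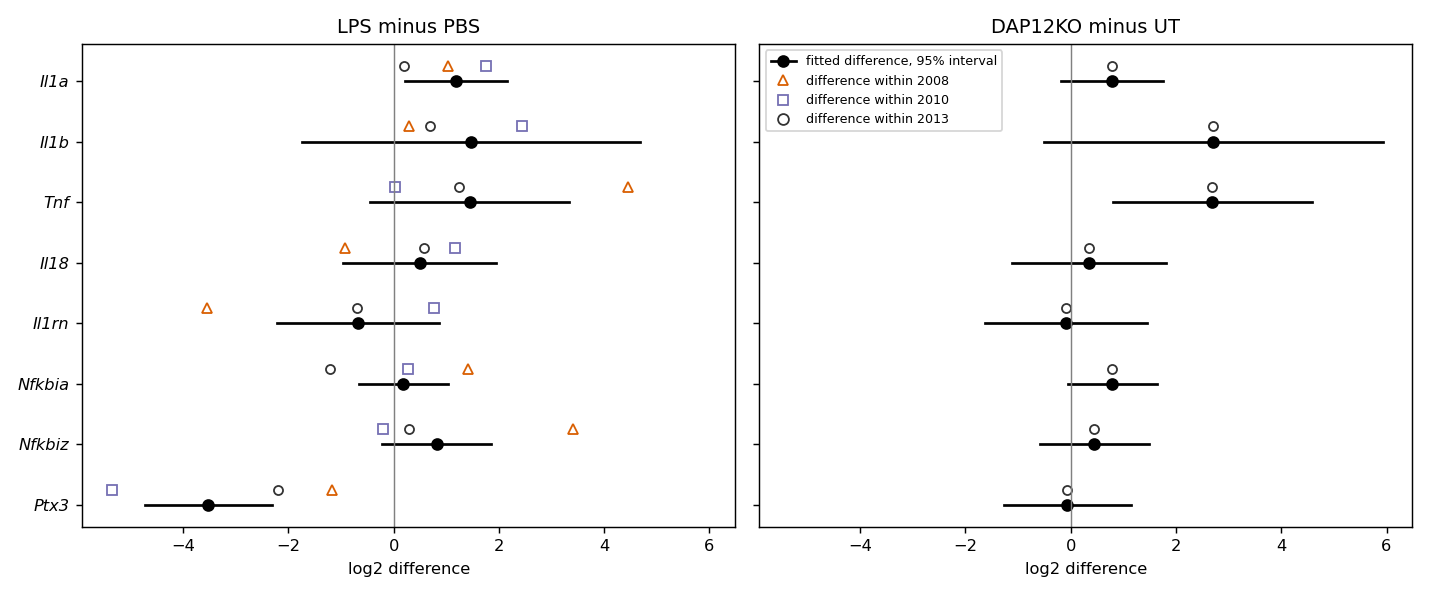
Fitted log2 difference of each tested member with its 95% interval for LPS minus PBS and DAP12KO minus UT, with the differences within label years as open symbols. The interval of Ptx3 lies below 0 for LPS minus PBS, from −4.73 to −2.31, and Il1rn, Nfkbia, Nfkbiz and Il18 have years on both sides of 0.

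Ptx3 read 2.19 in year 1, 3.55 and 2.40 in year 2 and 2.19 in year 4 on LPS arrays. On PBS arrays it read 3.35, then 8.30 and 8.36, then 4.398. The PBS arrays of year 2 were far above all others, and every LPS array was below the PBS mean of its year, by 1.16 in year 1 and by means of 5.35 in year 2 and 2.20 in year 4. With 3 of 4 LPS arrays under the threshold, the LPS values have little order among themselves. Ptx3 averaged 2.58 ± 0.65 on LPS and 6.10 ± 2.60 on PBS arrays (SD, n = 4 each). The fitted difference was −3.52 ± 0.57 (SE, 95% interval −4.73 to −2.31, adjusted p = 0.0444 by limma). Its SE shares the spread of DAP12KO and UT arrays at the lowest level, and was 0.83 with the LPS and PBS arrays alone (adjusted p = 0.453 by limma). With values under the threshold set to it, the difference was −3.34 ± 0.59 (SE), with an adjusted p of 0.0507 by limma. The groups overlapped, since the highest LPS value, 3.55 in year 2, exceeded the lowest PBS value, 3.35 in year 1. The second Ptx3 probe set was at 2.19 on all 18 arrays.

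Ptx3 was at or under 2.44 on all DAP12KO and UT arrays. All 4 DAP12KO arrays read 2.19, and the UT arrays read 2.19 and 2.21 in year 3 and 2.21, 2.19, 2.19 and 2.44 in year 4. Both groups were thus under the threshold, and no fold is given. The Ptx3 values above the threshold were therefore those of 1 LPS array and the 4 PBS arrays.

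The call for Ptx3 depended on the array set and on the processing. It was lost, with adjusted p-values of 0.0617 to 0.192, in 14 of the 18 fits that left out 1 array. These 14 were each array of year 2 and each DAP12KO or UT array. It was kept, with 0.00222 to 0.00884, without any 1 of the LPS or PBS arrays of year 1 and year 4. Ptx3 had a negative difference under all 31 alternatives that gave a value, from −4.65 to −1.68, and 7 of them passed. The smallest difference, −1.68, was that without the 2 PBS arrays of year 2 (adjusted p = 0.148 by limma) and without all 4 arrays of year 2 (0.0765). Without the year term the adjusted p was 0.341.

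Several marker lists of other cell types were highest on the PBS arrays of year 2, as Ptx3 was. The neuron marker mean was 6.66 to 8.99 on LPS and 7.31 to 10.59 on PBS arrays, with 8.90 and 8.99 on the LPS and 10.49 and 10.59 on the PBS arrays of year 2. The mean of 15 of 16 progenitor and astrocyte markers was 6.73 to 8.10 on LPS and 6.70 to 10.26 on PBS arrays. That of 6 of 12 choroid plexus and meninges markers was 4.69 to 7.49 on LPS and 4.85 to 8.73 on PBS arrays. That of 7 of 12 endothelial cell and pericyte markers was 2.72 to 4.98 on LPS and 3.52 to 6.26 on PBS arrays. The exceptions were the border macrophage and monocyte list and the erythroid list. The mean of 10 of 16 border macrophage and monocyte markers was 8.63 and 8.43 on the LPS and 8.13 and 8.06 on the PBS arrays of year 2. These PBS values were the lowest of that group. Of erythroid markers 2 of 7 were tested, with means of 2.96 and 3.04 on the LPS and 2.35 and 2.75 on the PBS arrays of year 2. Not all markers were seen: Slc17a7 of neurons and Ngp and Camp of granulocytes were under the threshold on all 18 arrays. So were Kl, Lum and Slc6a13 of the choroid plexus and meninges list, and Hba-a1 and Hbb-y of the erythroid list. On DAP12KO and UT arrays, where Ptx3 was under the threshold, neuron markers read 6.24 to 7.04 and 5.98 to 7.54. The part of these cells in the Ptx3 difference was not tested.

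**Figure D4:**
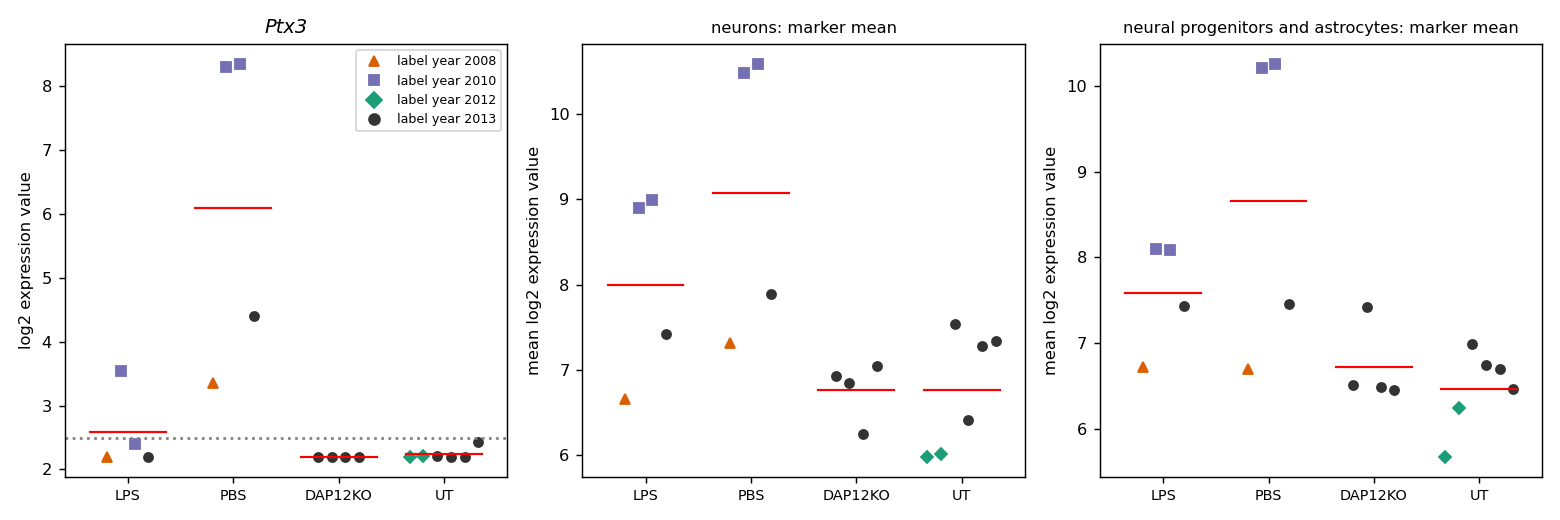
Ptx3 and the mean log2 value of marker lists of other cell types on each array by group, coloured by label year, with group means as red lines and the threshold as a dotted line in the Ptx3 panel. The PBS arrays of year 2 are highest in Ptx3, at 8.30 and 8.36, and in the neuron marker mean, at 10.49 and 10.59.

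The genes whose values followed Ptx3 most closely over the 18 arrays were Ptgds (Pearson r = 0.984), Olig1 (0.974) and Rps6ka6 (0.969). Ptgds, which encodes a prostaglandin D synthase, averaged 2.75 on LPS and 6.77 on PBS arrays and 2.19 on both DAP12KO and UT arrays. Olig1, an oligodendrocyte lineage transcription factor, averaged 2.29 on LPS and 5.80 on PBS arrays. For Il1b the closest were Rapsn (0.808), Arpc4 (0.789) and Aamp (0.782). Ptx3 was under the threshold on 13 of the 18 arrays and above 8 only on the 2 PBS arrays of year 2. Its r values thus rest mainly on those 2 arrays. The genes were picked as the highest r of all tested genes in the same values. These are descriptions over arrays that share groups and label years.

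A test of whether the LPS and DAP12KO differences themselves differed gave 0 members at an adjusted p under 0.05 by limma, on a background of 0%. At an unadjusted p under 0.05 there was 1 member, Ptx3, on a background of 8.11% (943 genes). Ptx3 had passed the filter only through the PBS arrays and was under the threshold on all DAP12KO and UT arrays. Its value here thus restates its LPS minus PBS difference and is no separate support. The 2 comparisons share no array.

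Whether the 8 tested members varied together between pools was then examined. Values were centred within group and label year on the 14 arrays that share both with another array. Of the 28 pairs of members, 22 had a positive Pearson r and 0 passed after adjustment. By permutation test 2 pairs, Il1a with Il18 and Il1a with Tnf, had an unadjusted p under 0.05. When each pair was read without the 2 arrays farthest from the median in its first-named gene, 14 of the 28 pairs were positive. The arrays left out thus differed between pairs, and the 14 do not describe 1 set of arrays. The pairs with Ptx3, whose centred value was 0 on every DAP12KO array, had r of −0.062 to 0.2. No share of positive pairs over all tested genes is given, so the 22 do not show that the members vary together. Il1a and Il18 had r = 0.739 (permutation p = 0.0147, adjusted p = 0.412) and Spearman's rho = 0.691 (permutation p = 0.0255, adjusted p = 0.544). Without the 2 arrays farthest from the median in Il1a, r was 0.602 (permutation p = 0.134). Il1a and Tnf had r = 0.637 (permutation p = 0.0497, adjusted p = 0.696) and rho = 0.526 (permutation p = 0.135, adjusted p = 0.544), and r = 0.53 without the 2 farthest arrays (permutation p = 0.473). Il1b and Tnf, the most variable members, had r = 0.751 (permutation p = 0.117, adjusted p = 0.776) and rho = 0.46 (permutation p = 0.175, adjusted p = 0.614). Without the 2 arrays farthest from the median in Il1b, r was −0.29. It was 0.755 without the 4 arrays of year 2, and 0.844 with only the DAP12KO and UT arrays of year 4. Both of these settings keep the 2 farthest arrays, on which the Il1b and Tnf relation rests.

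The rest of the pathway was described by 6 lists, in which 0 genes passed an adjusted p of 0.05 in either comparison by limma. At an unadjusted p under 0.05 they held 6 of 65 tested genes for LPS minus PBS (9.23%, against 12.4% of all tested genes) and 4 of 65 for DAP12KO minus UT (6.15%, against 5.48%), so neither share stands out. Of 13 tested subunits and kinases of NF-kB, 8 had a positive and 5 a negative difference with LPS (median 0.03), and 8 and 5 in DAP12KO (median 0.20). Ikbkg, the regulatory subunit of the IkB kinase, differed by −1.96 ± 0.96 with LPS and −1.72 ± 0.96 in DAP12KO (SE). Tab3, an adaptor of the TAK1 kinase, differed by −1.31 ± 0.77 with LPS, with the sign turning over the years (−3.90, −1.76 and 2.20). Rel, an NF-kB subunit, differed by −1.57 ± 0.94 in DAP12KO.

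Of 19 tested feedback and signal inhibitors, 13 had a positive and 6 a negative difference with LPS (median 0.26), and 9 and 10 in DAP12KO (median −0.04). Nfkbid, a nuclear IkB protein like Nfkbiz, averaged 9.14 ± 0.85 on LPS and 7.11 ± 1.79 on PBS arrays (SD, n = 4 each). Its difference of 2.04 ± 0.54 (SE) was positive in all 3 years, at 1.88, 3.004 and 0.26, with an adjusted p of 0.169 by limma. Rcan1, an inhibitor of calcineurin, was close in every year, at 1.18, 0.81 and 1.02 (0.96 ± 0.30 SE, adjusted p = 0.216 by limma). In DAP12KO, Cyld, a deubiquitinase that limits NF-kB signalling, differed by −1.95 ± 0.91, and Socs3, an inhibitor of cytokine receptor signalling, by −1.36 ± 0.85 (SE). None of these 4 genes passed the test.

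Of 10 tested cytokine receptors and decoys, 8 had a positive and 2 a negative difference with LPS (median 0.11), and 5 and 5 in DAP12KO (median −0.05). Il6ra, the interleukin-6 receptor, differed by 0.86 ± 0.28 with LPS (SE, adjusted p = 0.236 by limma), nearly all of it in year 2, where the gap was 1.69 against 0.04 in year 1 and 0.003 in year 4. Tnfrsf1a, a TNF receptor, differed by 0.60 ± 0.49 with LPS. In DAP12KO, Il1rap, the accessory chain of the interleukin-1 receptor, differed by 1.45 ± 0.54 (SE, adjusted p = 0.814 by limma) and Il10ra, the interleukin-10 receptor, by 0.93 ± 0.52.

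Of 12 tested genes of the inflammasome and of cytokine release, 9 had a positive and 3 a negative difference with LPS (median 0.44), and 7 and 5 in DAP12KO (median 0.12). Rhbdf2, which encodes iRhom2, a partner of the enzyme that sheds TNF, averaged 6.01 ± 1.202 on LPS and 4.25 ± 1.02 on PBS arrays (SD, n = 4 each). Its difference was 2.26, 1.69 and 1.39 within the years (1.76 ± 0.55 SE, adjusted p = 0.216 by limma). Panx1, a channel that releases ATP, differed by −1.40 ± 0.58 with LPS, with a gap of −2.94 in year 2 and of 0.08 and 0.21 in the other years. The caspases Casp4 and Casp1 were above the UT mean of year 4 on 4 of 4 DAP12KO arrays, with differences of 2.26 ± 1.00 and 1.05 ± 0.50 (SE), and did not pass (adjusted p = 0.877 and 0.903 by limma).

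Of 22 other cytokines only 8 passed the filter, of which 6 had a positive and 2 a negative difference with LPS (median 0.37), and 7 and 1 in DAP12KO (median 0.35). Tgfb1 differed by 0.96 ± 0.55 with LPS (SE), and its sign turned in year 4 (0.86, 2.23 and −1.49). Il15 differed by 0.74 ± 0.64 with LPS, likewise turning in year 4 (1.34, 1.36 and −1.11), and by 0.84 ± 0.64 in DAP12KO. Ebi3, a subunit shared by several interleukins, differed by 0.82 ± 0.56 in DAP12KO. Of 13 pentraxins and other acute-phase genes 3 were tested, with 2 positive and 1 negative in each comparison (medians 0.02 and 0.19). Cp, the copper carrier ceruloplasmin, differed by 1.99 ± 0.53 with LPS (SE, adjusted p = 0.169 by limma), at 2.71, 2.18 and 0.91 within the years, and by 0.19 ± 0.53 in DAP12KO. The neuronal pentraxin Nptx1 differed by −1.08 ± 0.76 with LPS, and its gap was 2.79 in year 1, −3.44 in year 2 and −0.21 in year 4. Orm2, an acid glycoprotein, differed by 1.79 ± 0.74 in DAP12KO, with 2 of 4 DAP12KO and all 6 UT arrays under the threshold.

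**Figure D5:**
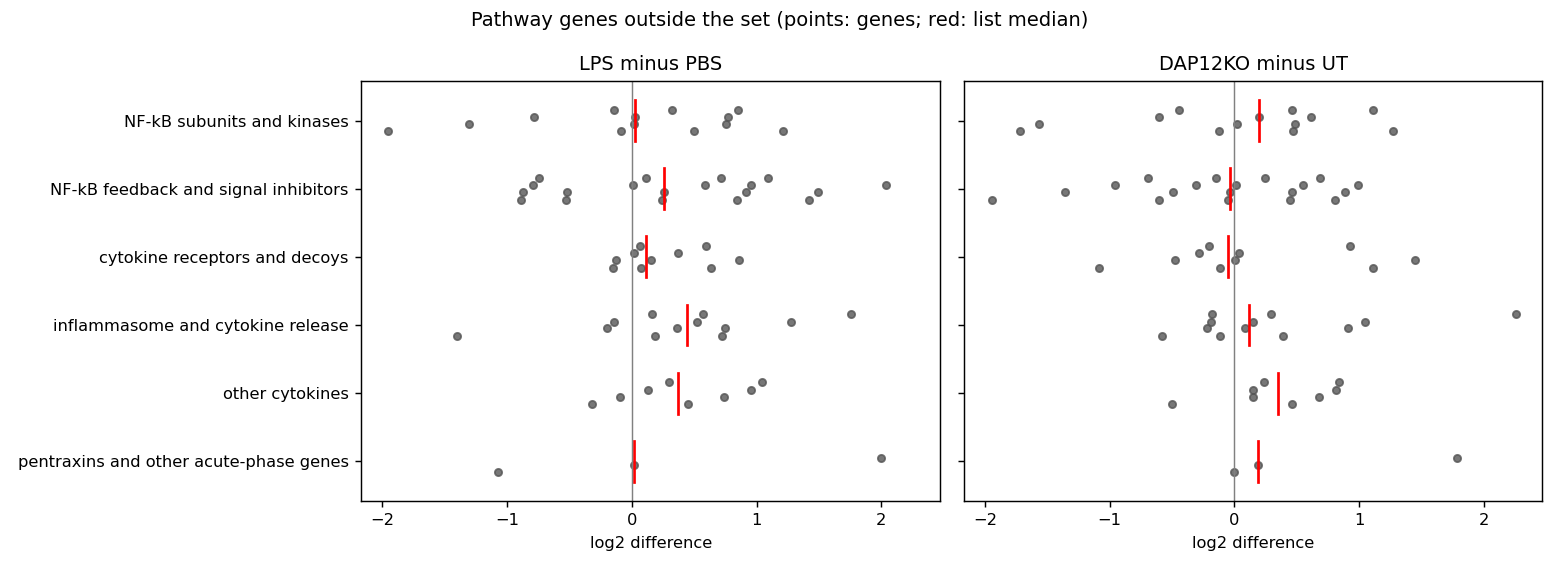
Log2 difference of each tested gene of the 6 pathway lists as a point, with list medians as red lines, for LPS minus PBS and DAP12KO minus UT. List medians lie between −0.05 and 0.44, and single genes lie on both sides of 0 in nearly every list.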

How the data were processed

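RNA from sorted microglia was amplified and labelled with NuGEN kits and hybridized to Mouse430_2 arrays, per the labels' protocols. The deposited values are log2 expression values for 45101 probe sets made with RMA, per the submitters' processing notes. The sources used here give neither its version nor whether it was run on all arrays at once, nor what step the label years mark. The labels do not say whether LPS-3_2_2013 repeats the pool of LPS3_2008, and it was counted as a separate array. The number of arrays limits the precision.

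Each gene was represented by its single-gene probe set with the highest mean, and genes below the 40th percentile of probe set means (2.49) were left out. The remaining 11630 genes were fitted with limma 3.58.1 in R 4.3.3 on all 18 arrays, with group means and label year as an additive term and a variance prior that follows intensity. The Benjamini-Hochberg adjustment of the two-sided p-values ran over these genes, at a threshold of 0.05. All DAP12KO arrays are of year 4, so the UT arrays of that year set the difference and those of year 3 add to the spread only. Correlations used permutation tests with 100000 resamples within group and year. The fit was tested on simulated data.

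Members and lists were chosen with earlier results of these data known. Named were all members, of each list the genes past the threshold or else the 2 with the lowest p in each comparison, and the 3 genes most like Il1b and Ptx3. Of the lists, Nfkb1, Chuk, Traf3, Ripk1, Tnip3, Nlrp1b, Nlrc4, Il27, Il36g and Nptxr were not analysed here.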

Additional observations from a re-analysis of the deposited data

Results flagged for a closer look

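Of 30 sets of values of 1 gene in 1 group, 5 held an array far from the others by Dixon's test. Its nominal rate is about 1 in 20 for values that vary alike. The LPS, PBS and UT sets mix label years, and some values lie near the lowest level, so the count cannot be set against that rate. Il1b read 2.58 on DAP12KO array 1, against 9.18 to 10.48 on the other DAP12KO arrays. Nfkbia read 10.56 on the LPS array of year 4, against 12.53 to 12.57 on the other LPS arrays. Il1rn read 3.43 on the LPS array of year 1, against 5.38 to 5.55 on the others. Ptx3 read 3.55 on an LPS array of year 2, against 2.19 to 2.40 on the other LPS arrays, all under the threshold. Tnf read 2.67 on the PBS array of year 1, against 2.82 to 2.85 on the others, all near the lowest values of that probe set.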

How the results depend on the processing

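The number of arrays and the values near the lowest level of the table limit Il6, Il10, Ptx3 and Tnf. For LPS minus PBS, the count of members past the threshold was 0 without the year term, with the 2 groups alone, without the 2 PBS arrays of year 2, without all 4 arrays of year 2, with no filter, with every probe set, with the mean of probe sets, with low values set to the threshold, with 1 variance prior and with a replicate block. It was also 0 with the 60th percentile filter, which leaves 6 members and removes Ptx3 and Tnf, so that the Ptx3 call was not tested there. It was 2 with array weights, where Il1a (1.52, adjusted p = 0.042 by limma) joined Ptx3, and 0 to 1 when each array was left out. With quantile normalization it was 1, Ptx3 (−3.465, adjusted p = 0.0362 by limma). The count of all genes, 11 in the fit above, was 0 without the year term, with the 2 groups alone, with the stricter filter and with the replicate block. It was 1 with no filter, 3 with low values set to the threshold or 1 variance prior, 5 without the arrays of year 2 (5 higher, 0 lower) or with quantile normalization, 9 without the 2 PBS arrays of year 2 (8 higher, 1 lower), 6 with every probe set or their mean, 94 with only the arrays of year 4, 826 with array weights and 0 to 120 leaving out each array. With only year 4, the lone LPS and PBS arrays are assumed to vary like the other groups. Under the replicate block the Ptx3 difference was −3.52 with an adjusted p of 0.179 by limma. The labels do not say that the numbers pair the samples. Same-numbered LPS and PBS arrays of year 2 had correlated deviations from their groups (Pearson r = 0.531), and same-numbered DAP12KO and UT arrays did not (−0.011 and 0.008). With 2 arrays per group in year 2 the deviations are mirror images. Arrays 1 and 2 thus give the same r, which is 1 comparison and cannot decide whether the numbers pair the samples.

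For DAP12KO minus UT the count of members stayed 0 in all 32 alternatives, and that of all genes was 0 to 6 leaving out each array. For the difference of the responses, 1 member, Ptx3, passed with array weights (0 to 1 leaving out each array). With only year 4, which leaves 1 LPS and 1 PBS array, the Ptx3 value was −2.14, and no test of it is given. These values restate the LPS minus PBS difference of Ptx3, as said above. The count of genes was 70 with only year 4, 11 with array weights, 1 with no filter, every probe set, the mean of probe sets or 1 variance prior, and 0 to 18 leaving out each array.

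The direction turned for Il18 with LPS without the 2 PBS or all arrays of year 2 (−0.17), for Il1rn with LPS under array weights (0.33), for Nfkbia with LPS with only year 4 (−1.22), and for Il1rn in DAP12KO with the mean of probe sets (0.71) and array weights (0.008). Leaving out each array gave −0.997 to 0.28 for Il1rn, −0.22 to 0.65 for Nfkbia and −0.042 to 1.13 for Nfkbiz with LPS, and −0.038 to 1.07 for Il18 and −0.47 to 0.38 for Il1rn in DAP12KO. The causes were not tested.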
